A study of Homo sapiens with 6 samples.

Results

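The genes described here encode the machinery that loads peptides onto MHC class I molecules: the heavy chains HLA-B, HLA-C, HLA-E and HLA-F, the light chain B2M, the peptide transporter subunits TAP1 and TAP2, the loading factor TAPBP (tapasin) and the peptidase ERAP1. They were chosen by symbol from a count table of 18544 genes, and all 9 were found once and passed the filter on low counts. The table holds poly-A RNA-seq libraries of HMEC-1, a line of human microvascular endothelial cells from skin made immortal by a viral antigen, cultured in MCDB131 medium with 5.5 mM glucose. Set7KD cells (n = 3) had received a lentivirus with an shRNA against SETD7, also called Set7, a lysine methyltransferase that adds a methyl group to histone H3 and to other proteins. NTC cells (n = 3) had received a lentivirus with a non-targeting shRNA. The design describes biological triplicates without saying how the cultures were separated, and the tests rest on the spread among these 6 libraries.

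Class I molecules are present on nearly all nucleated cells and show short peptides from the cell's own proteins to CD8 T cells. Peptides are cut in the cytosol by the proteasome and carried into the endoplasmic reticulum by the transporter made of TAP1 and TAP2. There ERAP1 trims them, and tapasin holds the empty heavy chain with its light chain beside the transporter until a peptide fits. HLA-B and HLA-C are classical, highly polymorphic heavy chains, whereas HLA-E presents mainly leader peptides of other class I chains to a receptor of natural killer cells, and HLA-F is a nonclassical chain of lower abundance. In endothelium these genes are known to respond to interferons and to tumour necrosis factor through promoter elements bound by IRF and STAT proteins, by NF-kB and by the RFX, CREB and NF-Y complex that NLRC5 joins.

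Such elements can be read in the promoters of the genes. Of the 9 genes, 8 matched a RefSeq promoter by symbol (GRCh38.p14), all but HLA-E, which the motif counts therefore do not cover. The 250 bases before the start site were searched on both strands. The sequences below were picked to set the chain genes HLA-B, HLA-C and B2M beside both transporter subunits and ERAP1, the single gene called higher. Capitals mark matches to the interferon-stimulated response element core (GAAA, any pair of bases, GAAA), the kappa-B consensus, CCAAT (the Y box) and TGACG (the core of the X2 box), each in either orientation. Neighbouring matches run together where they overlap. In order, the regions are chr6:31357180-31357429 on the minus strand, chr6:31272093-31272342 on the minus strand, chr15:44711267-44711516 on the plus strand, chr6:32853705-32853954 on the minus strand, chr6:32838740-32838989 on the minus strand and chr5:96807946-96808195 on the minus strand, each printed 5′ to 3′ and ending at the base before the start site.
HLA-B: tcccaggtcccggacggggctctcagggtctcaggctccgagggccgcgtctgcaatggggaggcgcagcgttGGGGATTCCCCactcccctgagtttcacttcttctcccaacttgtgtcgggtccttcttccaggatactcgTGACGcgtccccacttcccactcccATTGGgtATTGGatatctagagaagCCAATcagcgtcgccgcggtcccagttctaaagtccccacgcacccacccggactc
HLA-C: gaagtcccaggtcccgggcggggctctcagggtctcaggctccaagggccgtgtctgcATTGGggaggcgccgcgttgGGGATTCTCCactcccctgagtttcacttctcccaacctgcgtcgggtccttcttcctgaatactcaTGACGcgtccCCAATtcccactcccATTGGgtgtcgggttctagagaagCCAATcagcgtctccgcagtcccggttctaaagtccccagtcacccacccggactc
B2M: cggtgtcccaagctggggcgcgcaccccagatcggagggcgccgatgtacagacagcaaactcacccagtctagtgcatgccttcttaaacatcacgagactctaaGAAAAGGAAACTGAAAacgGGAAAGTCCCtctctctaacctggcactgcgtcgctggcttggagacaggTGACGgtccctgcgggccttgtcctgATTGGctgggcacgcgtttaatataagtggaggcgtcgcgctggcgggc
TAP1: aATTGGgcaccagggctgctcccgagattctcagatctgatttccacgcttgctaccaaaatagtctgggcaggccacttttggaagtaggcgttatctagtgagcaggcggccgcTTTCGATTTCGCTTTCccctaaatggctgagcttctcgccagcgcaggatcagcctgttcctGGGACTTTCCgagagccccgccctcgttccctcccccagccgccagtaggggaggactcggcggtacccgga
TAP2: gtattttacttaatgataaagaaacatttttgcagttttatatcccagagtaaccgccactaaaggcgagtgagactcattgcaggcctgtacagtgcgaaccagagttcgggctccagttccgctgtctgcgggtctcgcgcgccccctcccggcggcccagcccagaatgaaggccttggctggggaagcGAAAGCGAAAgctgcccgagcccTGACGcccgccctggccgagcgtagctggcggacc
ERAP1: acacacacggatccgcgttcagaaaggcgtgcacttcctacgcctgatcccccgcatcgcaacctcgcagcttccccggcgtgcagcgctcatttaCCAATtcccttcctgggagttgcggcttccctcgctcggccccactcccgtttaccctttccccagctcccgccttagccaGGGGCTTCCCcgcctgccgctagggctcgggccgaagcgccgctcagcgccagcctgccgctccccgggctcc

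The kappa-B consensus was found in 6 of the 8 genes with a promoter, all but HLA-F and TAP2, and in 9.96% of the 35116 RefSeq promoters over the same length. The interferon-stimulated core stood in 5 of the 8, namely B2M, HLA-F, TAP1, TAP2 and TAPBP, against 3.02% of all promoters. Only exact matches to this core were counted. A promoter without a match, as in HLA-B and HLA-C, may still hold a variant of the element. CCAAT stood in 6 of 8 (32% of all promoters) and TGACG in 4 of 8 (21.2%). HLA-B and HLA-C carried the kappa-B match at matching places, 177 to 167 and 172 to 163 bases before the start, and TGACG 106 and 105 bases before it. In B2M a pair of overlapping interferon-stimulated cores began 144 bases before the start, with the kappa-B match shortly after them. The counts out of 8 took the first listed start site of each gene, whereas the shares of all promoters counted every listed promoter. The 8 genes have 10 promoters, since TAP1 and ERAP1 each have another listed start site, with no match to any of these motifs. A match describes the letters only and is not evidence that a factor was bound.

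SETD7 itself had 27.8, 43.8 and 26.7 CPM (counts relative to the library total, scaled for composition) in Set7KD replicates 1 to 3, against 181, 178 and 176 CPM in NTC. On the log2 scale the fold change was -2.44 (standard error 0.21, edgeR adjusted p = 0.000927). The libraries held 16385878 to 16953331 counts in genes, and 1 count equalled 0.0585 to 0.0618 CPM. Endothelial markers, of which 11 of 13 matched a row, summed to 599 to 634 CPM in Set7KD and 647 to 811 CPM in NTC, and none of the 11 was at 0. Of the 11, 4 were called lower and 4 higher, and PECAM1 and CLDN5 were not analysed here. Of 12 leukocyte markers 4 matched, with sums of 112 to 117 CPM in Set7KD and 130 to 140 CPM in NTC, mostly HCLS1, a gene also expressed outside leukocytes. Epithelial markers, of which 3 of 6 matched, summed to 228 to 249 CPM in Set7KD and 219 to 262 CPM in NTC. Fibroblast markers, of which 6 of 8 matched, summed to 3170 to 4120 CPM in Set7KD and 1500 to 2040 CPM in NTC. This sum was mostly the collagen genes COL1A1 and COL1A2. COL1A1 had 2861 ± 395 CPM in Set7KD and 1555 ± 270 CPM in NTC, and COL1A2 had 733 ± 98.8 and 149 ± 5.59 CPM (SD, n = 3). Of the 6, 4 were called higher and 0 lower, and LUM and PDGFRB did not pass (edgeR adjusted p = 0.22 and 0.273). The endothelial, leukocyte and fibroblast sums moved with the group, and their part in the class I values was not tested. In bulk RNA, fewer cells of a type and less RNA per cell cannot be told apart.

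Over the 9 genes, 5 were called lower and 1 higher in Set7KD (edgeR's quasi-likelihood test, Benjamini-Hochberg adjusted p under 0.05 over 18482 tested genes). The fall took in HLA-C, HLA-E, HLA-F, B2M and, by a small margin, TAPBP, and the gene that rose was ERAP1. In this fit, which has no replicate block, HLA-B, TAP1 and TAP2 did not pass. Across all tested genes 18.6% were called lower and 17.6% higher, so that calls in either direction were common in this comparison. Counts for the other lists of genes are to be read beside these shares. With the replicate number as a block, 7 of the 9 genes were called lower, HLA-B and TAP1 among them, and 1 higher. That fit called 4090 genes lower and 3826 higher among all tested. The median log2 fold change was -0.44 over the 9 genes and -0.01 over all tested genes. All Set7KD libraries lay below all NTC libraries for 6 of the 9 genes, against 24.1% of tested genes, and above them for 1, against 23.3%. Together the 9 genes took 0.189, 0.212 and 0.181% of gene counts in Set7KD and 0.272, 0.3 and 0.234% in NTC.

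**Figure D1:**
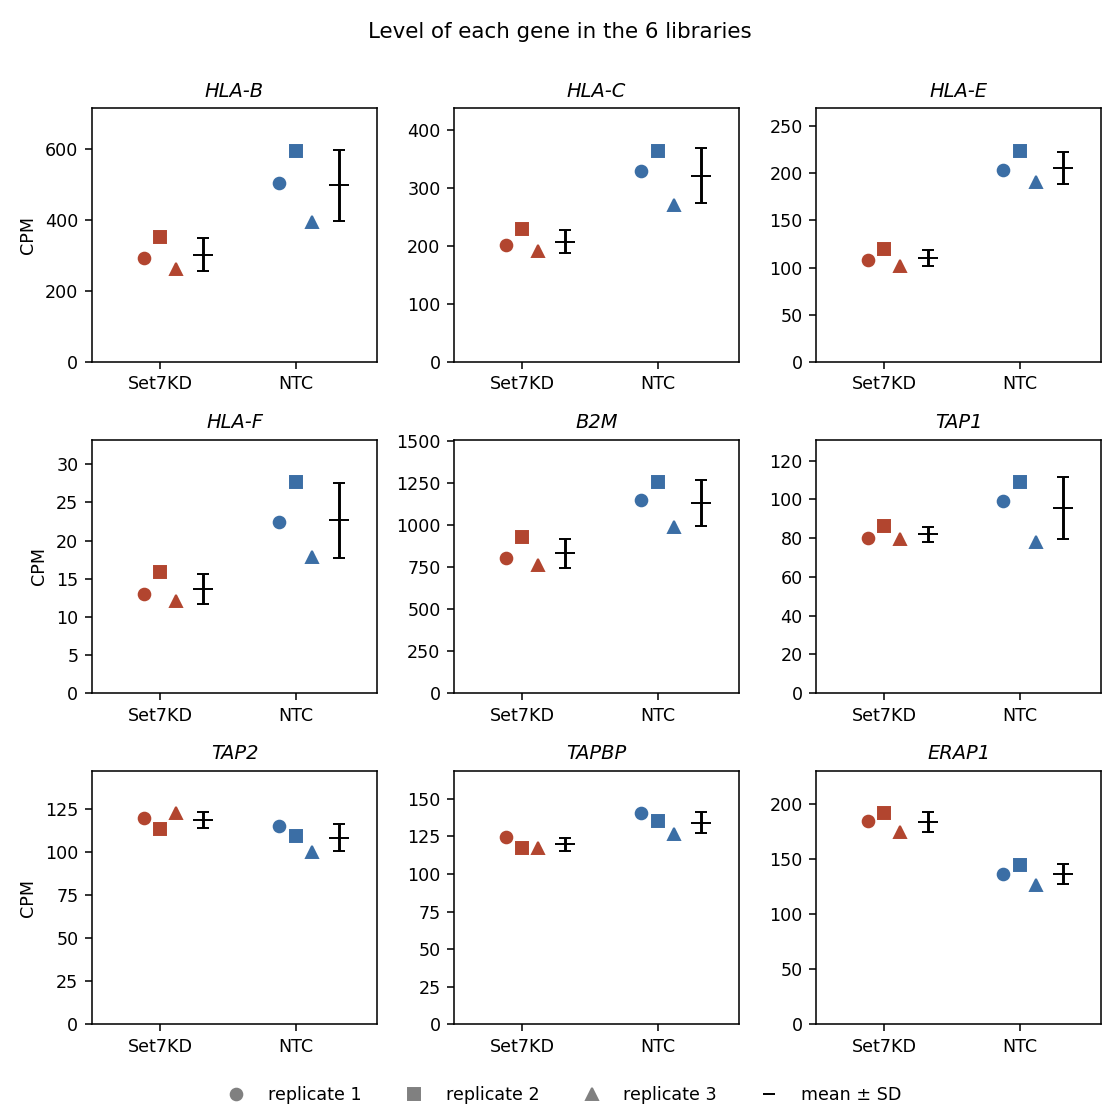
CPM of each of the 9 genes in the 6 libraries, with Set7KD left of NTC, 1 symbol per replicate number, and the mean ± SD (n = 3) beside the points. Set7KD points lie below all NTC points for HLA-B, HLA-C, HLA-E, HLA-F, B2M and TAPBP, above them for ERAP1, and among them for TAP1 and TAP2.

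The heavy chain HLA-E (ENSG00000204592.5), a ligand of inhibitory receptors on natural killer cells, had the lowest fold change of the 9 genes. Its CPM were 108, 119 and 102 in Set7KD replicates 1 to 3, against 203, 224 and 190 in NTC. Every Set7KD library was well below every NTC library. The log2 fold change was -0.91 (standard error 0.07, 95% interval -1.05 to -0.76), a fold of 0.534, with an edgeR adjusted p of 4.11e-07. HLA-E kept its call in all 17 alternative fits, with adjusted p from 1.93e-25 to 0.000567. The ratio of HLA-E to HLA-B plus HLA-C was 0.205 to 0.226 in Set7KD and 0.233 to 0.286 in NTC, without overlap (exact two-sided permutation p = 0.1, the smallest that 3 libraries against 3 allow, and 0.125 adjusted over 5 ratios).

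HLA-C (ENSG00000204525.8), a classical chain that is also a ligand of killer cell receptors, had 202, 229 and 191 CPM in Set7KD and 329, 365 and 270 CPM in NTC. The groups did not overlap, and the NTC libraries were spread more widely, with replicate 3 the lowest. HLA-C had a log2 fold change of -0.63 (standard error 0.12, 95% interval -0.91 to -0.35, edgeR adjusted p = 0.00548). HLA-F (ENSG00000204642.8) had far fewer reads, with 13, 15.8 and 12.1 CPM in Set7KD against 22.4, 27.7 and 17.9 CPM in NTC. Its groups did not overlap either, and the log2 fold change was -0.73 (standard error 0.16, edgeR adjusted p = 0.00618). Genes on the opposite strand, HCG4P11 and HLA-F-AS1, cover 16.1 and 12.3% of the exon bases of HLA-F, with log2 fold changes of -1.03 and -0.03, and without a stated strand setting their reads cannot be told apart from those of HLA-F.

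HLA-B (ENSG00000234745.4), the most abundant of the 4 heavy chains here, missed the threshold, with a fold change close to that of HLA-F and a wider interval. It had 292, 353 and 261 CPM in Set7KD and 503, 596 and 395 CPM in NTC. All Set7KD libraries lay below all NTC libraries, but the lowest NTC library, replicate 3, stood near the highest Set7KD library, replicate 2. Its log2 fold change was -0.72 (standard error 0.20, 95% interval -1.25 to -0.19), and the edgeR adjusted p was 0.0507. With the replicate number as a block the adjusted p was 1.88e-08, and without NTC replicate 3 it was 0.00397, so that HLA-B was then called. Its adjusted p ran from 1.88e-08 to 0.246 over 17 alternatives, 8 of which called it. The ratio of HLA-B to HLA-C was 1.45 ± 0.0857 in Set7KD and 1.54 ± 0.0864 in NTC (SD, n = 3), with overlap (exact permutation p = 0.3, also 0.3 adjusted). This test did not use the replicate numbers, and within numbers 1, 2 and 3 the ratio was 1.44, 1.54 and 1.37 in Set7KD against 1.53, 1.63 and 1.46 in NTC, lower in Set7KD each time.

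Because reads of near-identical HLA genes may have been split between rows, the 4 heavy chain rows were also added up before the test. Their sum was 615, 717 and 567 CPM in Set7KD against 1058, 1212 and 874 CPM in NTC. The sum had a log2 fold change of -0.73 (standard error 0.14, 95% interval -1.08 to -0.38) and an edgeR adjusted p of 0.0097. In the reference transcripts of GENCODE 29, exact words of 50 bases shared with another gene made up 2.72% of the words of HLA-B, 5.38% of HLA-C, 4.34% of HLA-E and 0.977% of HLA-F. HLA alleles of a cell line differ from the reference, so the reads themselves may share more or align less well.

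The light chain B2M (ENSG00000166710.12), which pairs with every class I heavy chain and is encoded on chromosome 15, away from the MHC on chromosome 6, fell as well. It had 802, 925 and 763 CPM in Set7KD and 1146, 1255 and 985 CPM in NTC. No Set7KD library reached the lowest NTC library, again replicate 3. B2M had a log2 fold change of -0.44 (standard error 0.10, 95% interval -0.66 to -0.23, edgeR adjusted p = 0.00545), a fold of 0.735. The ratio of B2M to the summed heavy chains was 1.3, 1.29 and 1.35 in Set7KD and 1.08, 1.04 and 1.13 in NTC. It was higher in each Set7KD library, with an exact two-sided permutation p of 0.1 (adjusted 0.125).

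The transporter subunits TAP1 (ENSG00000168394.9) and TAP2 (ENSG00000204267.9), which form a single channel, did not pass the test. TAP1 had 79.9, 86.4 and 79.5 CPM in Set7KD and 99.4, 109 and 77.9 CPM in NTC. NTC replicate 3 was the lowest of the 6 libraries, while NTC replicates 1 and 2 were the highest. The log2 fold change of TAP1 was -0.22 (95% interval -0.48 to 0.04, edgeR adjusted p = 0.171). TAP1 was called lower with the replicate block, at -0.21 and an adjusted p of 0.0223, and without NTC replicate 3, at -0.35 and 0.000823, in a range of 0.000823 to 0.841 over 17 alternatives. PSMB8-AS1, on the opposite strand, covers 9.49% of the exon bases of TAP1 and had a log2 fold change of -0.20 (edgeR adjusted p = 0.166). TAP2 had 120, 114 and 123 CPM in Set7KD and 116, 110 and 100 CPM in NTC, with overlapping groups. Its log2 fold change was 0.13 (95% interval 0.0027 to 0.26, edgeR adjusted p = 0.103), and none of 17 alternatives called it (lowest adjusted p = 0.0511). The ratio of TAP1 to TAP2 was 0.666, 0.759 and 0.648 in Set7KD against 0.86, 0.995 and 0.778 in NTC, without overlap (exact permutation p = 0.1, adjusted 0.125). A protein-coding gene on the same strand, AL669918.1, covers 32.3% of the exon bases of TAP2 and has a row of its own, so the TAP2 count is uncertain. That row had 59.0 ± 3.61 CPM in Set7KD and 55.5 ± 5.62 CPM in NTC (SD, n = 3).

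TAPBP (ENSG00000231925.7), the bridge between the transporter and the heavy chain, had 125, 117 and 117 CPM in Set7KD and 140, 135 and 126 CPM in NTC. The groups came within a few CPM of each other without overlapping. For TAPBP the log2 fold change was -0.16 (standard error 0.06, edgeR adjusted p = 0.0338), and the call was lost in 9 of 17 alternatives, with adjusted p from 0.00792 to 1. Leaving out Set7KD replicate 2, Set7KD replicate 3, NTC replicate 1 or NTC replicate 2 each ended it, at adjusted p of 0.0707, 0.113, 0.163 and 0.0808.

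ERAP1 (ENSG00000164307.7), the aminopeptidase that trims peptides in the endoplasmic reticulum, was the gene of the 9 called higher. It had 185, 192 and 175 CPM in Set7KD and 137, 145 and 127 CPM in NTC. Every Set7KD library stood clearly above every NTC library. The log2 fold change was 0.43 (standard error 0.06, 95% interval 0.30 to 0.56, edgeR adjusted p = 5.28e-05), a fold of 1.35, and all 17 alternatives called it. The ratio of ERAP1 to TAP1 was 2.2 to 2.32 in Set7KD and 1.33 to 1.63 in NTC (exact permutation p = 0.1, adjusted 0.125). CAST, encoded on the opposite strand, covers 3.76% of the exon bases of ERAP1 and had 283 ± 13.6 CPM in Set7KD and 281 ± 15 CPM in NTC (SD, n = 3). AC008906.1, also on the opposite strand, covers 3.17% and rose by a log2 fold change of 0.54. ERAP2, a related trimming enzyme, had 14.7 ± 0.80 CPM in Set7KD and 15.8 ± 1.35 CPM in NTC and did not pass (edgeR adjusted p = 0.442).

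**Figure D2:**
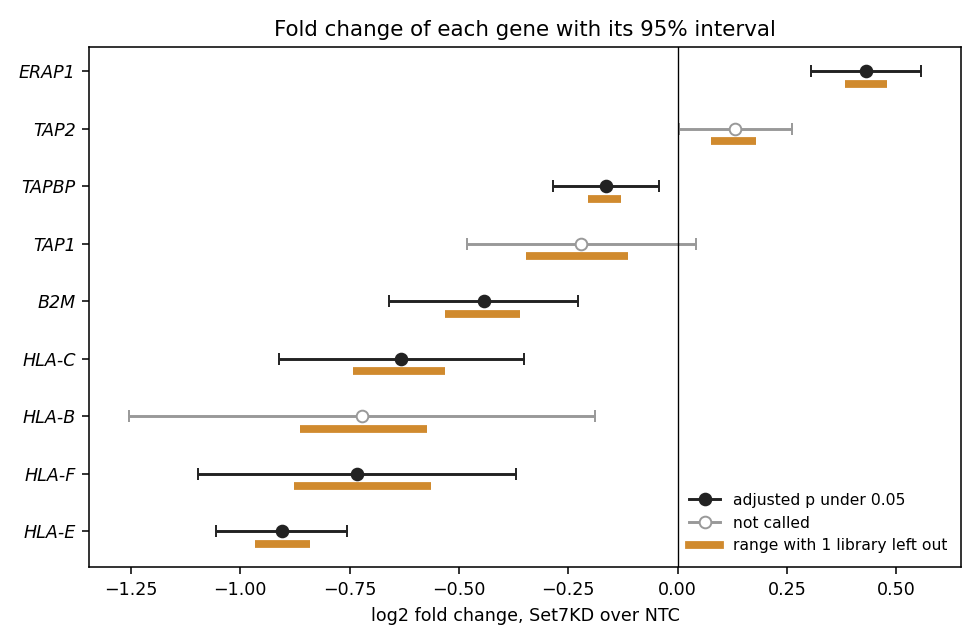
Log2 fold change of each gene, Set7KD over NTC, with its 95% interval from edgeR (filled points have an adjusted p under 0.05) and, as thick bars, the range of the estimate when each library was left out in turn. HLA-E at -0.91 and ERAP1 at 0.43 have narrow intervals, and HLA-B at -0.72 has the widest interval of the 9.

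For the heavy chains, B2M, TAP1 and ERAP1, replicate number 2 was the highest and number 3 the lowest in both groups. TAP2 and TAPBP did not keep the same order in both groups. Taken within replicate numbers 1, 2 and 3, HLA-E in Set7KD stood at 53.3, 53.3 and 53.6% of NTC. HLA-B stood at 58, 59.2 and 66.1%, HLA-C at 61.4, 62.8 and 70.7%, HLA-F at 57.8, 57.1 and 67.7% and B2M at 70, 73.7 and 77.5%. Replicate number 3 thus held the mildest difference for these 4 genes, while the 3 values of HLA-E were nearly equal. TAP1 stood at 80.4, 79.2 and 102%, TAP2 at 104, 104 and 123%, TAPBP at 88.9, 86.4 and 92.8% and ERAP1 at 135, 132 and 137%. Within the replicate numbers TAP1 was mixed, and each of the others kept 1 direction in all 3. The share of all tested genes that kept 1 direction was not counted, so this is a description only. Without both libraries of replicate number 1, HLA-E was the single gene of the 9 still called lower, and the adjusted p was 0.0613 for HLA-C, 0.0951 for HLA-F and 0.0723 for B2M. NTC replicate 3 held 71.9% of the mean of NTC replicates 1 and 2 for HLA-B, 71.5% for HLA-F, 74.7% for TAP1 and 89.1% for HLA-E.

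**Figure D3:**
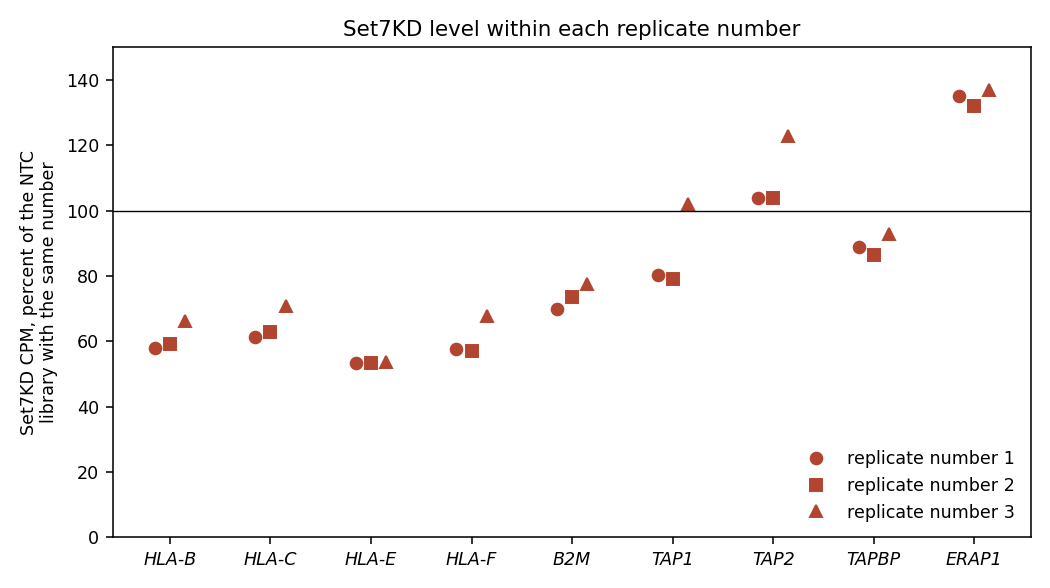
Set7KD CPM as a percentage of the CPM of the NTC library with the same replicate number, 1 symbol per number, for each gene. HLA-E lies at 53.3 to 53.6% in all 3, HLA-B, HLA-C, HLA-F and B2M are closest to 100% in number 3, and TAP1 reaches 102% there.

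Levels can be compared between genes only per length. Divided by the length of the longest principal protein-coding transcript in GENCODE 29, B2M was highest, with 487 ± 49.5 CPM per kb in Set7KD and 662 ± 79.5 CPM per kb in NTC (SD, n = 3). HLA-B came next, at 195 ± 30.1 and 322 ± 64.9 CPM per kb in Set7KD and NTC, and then HLA-C, at 135 ± 12.7 and 209 ± 31.1 CPM per kb. HLA-E had 42.3 ± 3.37 CPM per kb in Set7KD, where it ranked below TAPBP (63.4 ± 2.37) and overlapped TAP2 (47.6 ± 1.82). In NTC it had 79.2 ± 6.54 CPM per kb and overlapped TAPBP (71.0 ± 3.76), above TAP2 (43.4 ± 3.11). ERAP1 ranked above TAP1 in Set7KD, with 33.5 ± 1.58 and 27.7 ± 1.30 CPM per kb, and the pair overlapped in NTC, with 24.8 ± 1.64 for ERAP1 and 32.2 ± 5.38 for TAP1. HLA-F was lowest in both groups, at 8.34 ± 1.19 CPM per kb in Set7KD and 13.9 ± 3 CPM per kb in NTC. The other neighbours in this order did not overlap. By the length of all exons together, HLA-E stood above TAPBP in both groups without overlap. B2M overlapped HLA-B in NTC, HLA-B overlapped HLA-C in both groups, and TAP2 overlapped TAP1 in both groups. ERAP1 overlapped TAPBP in Set7KD and both TAP1 and TAP2 in NTC.

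Other class I heavy chain genes and pseudogenes fell or did not pass. Of 5 described here, 2 were called lower and 0 higher by edgeR, with a median log2 fold change of -0.58, and 4 were called lower without NTC replicate 3. The pseudogene HLA-H had a log2 fold change of -0.87 (edgeR adjusted p = 0.000109) and HLA-G, a nonclassical chain, had -0.58 (adjusted p = 0.00481), and 22.3% of the 50-base words of HLA-H occur in other genes. HLA-L, another pseudogene, had 7.40 ± 0.68 CPM in Set7KD and 6.95 ± 1.42 CPM in NTC and did not pass.

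Chaperones of peptide loading and glycoprotein folding were mostly higher. Of 9 tested genes for loading, trimming and quality control, 5 were called higher and 1 lower, with 1 higher against a fold of 1.2 and 3 higher without both libraries of replicate number 1. CANX, which holds new heavy chains, had 852 ± 30.6 CPM in Set7KD and 661 ± 21.7 CPM in NTC (SD, n = 3, edgeR adjusted p = 8.87e-05). PDIA3, the disulphide isomerase of the loading complex, had 263 ± 9.66 CPM in Set7KD and 215 ± 3.91 CPM in NTC (edgeR adjusted p = 0.000421). UGGT1, which checks glycoprotein folding, and HSPA5, the general chaperone of this compartment, rose with log2 fold changes of 0.23 and 0.61. TAPBPL, a tapasin-related editor of peptides named outside the rule for named genes after its values were seen, was called lower, at -0.36, and lost its call without Set7KD replicate 1 or NTC replicate 1 (adjusted p = 0.0942 and 0.0927, in a range of 0.00714 to 0.3 over 17 alternatives). Cytosolic peptidases gave 3 higher and 0 lower among 7 by edgeR: NPEPPS at a log2 fold change of 0.29, THOP1 at 0.23 and BLMH at 0.21. All 3 calls were lost against a fold of 1.2 and without both libraries of replicate number 1.

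Subunits that shape the peptide supply were mixed, with 3 of 7 immunoproteasome and activator genes lower and 2 higher. Of all tested genes 18.6% were called lower and 17.6% higher. Without Set7KD replicate 1 the count of lower genes was 1, and the count of higher genes was 1 without Set7KD replicate 2 or 3 or NTC replicate 1 or 2. Against a fold of 1.2 none of the 7 was called, and without both libraries of replicate number 1 the counts were 0 lower and 1 higher by edgeR. PSMB10 fell to 18.4 ± 0.66 CPM in Set7KD, against 23.9 ± 0.67 CPM in NTC (SD, n = 3, edgeR adjusted p = 0.00186), and PSMB8 had a log2 fold change of -0.21. The call of PSMB8 was lost without Set7KD replicate 1 or 3 or NTC replicate 1 or 2, and that of PSME1 without Set7KD replicate 1. PSME1, a subunit of the activator that interferon gamma induces, had -0.30, while PSME3, of a nuclear activator, had 0.33. PSMB9, which is transcribed away from TAP1 from an adjoining start site, had 33.1 ± 1.73 CPM in Set7KD and 36.7 ± 4.04 CPM in NTC. Like TAP1 it did not pass (edgeR adjusted p = 0.179), and without NTC replicate 3 it did (adjusted p = 0.0299, in a range of 0.0299 to 1 over 17 alternatives). PSMB8, PSMB9 and PSMB8-AS1 overlap one another in their exons.

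Among known regulators of class I genes, 5 of 8 NF-kB genes were called lower and 0 higher by edgeR, with a median log2 fold change of -0.37. The count was 2 lower against a fold of 1.2 and 2 lower without both libraries of replicate number 1, where NFKB1 and NFKBIE lost their calls. NFKB2 had 25.0 ± 1.11 CPM in Set7KD and 37.1 ± 2.07 CPM in NTC, and RELB, its partner, 9.18 ± 0.83 and 14.4 ± 1.90 CPM in Set7KD and NTC (SD, n = 3, edgeR adjusted p = 3.29e-05 and 0.000656). NFKB1 and the inhibitor gene NFKBIE had -0.30 and -0.43. Of 14 interferon pathway genes 6 were lower and 3 higher, against 2 lower and 0 higher for a fold of 1.2 and 2 lower and 1 higher without both libraries of replicate number 1. IRF1, which binds the interferon-stimulated element of class I promoters, had 29.3 ± 3.14 CPM in Set7KD and 50.1 ± 7.73 CPM in NTC (edgeR adjusted p = 0.00063). STAT2, a subunit of the factor activated by type I interferon, had a log2 fold change of -0.83, IFNGR2, a receptor chain for interferon gamma, had -0.26, and the kinase JAK1 had 0.28. IFNGR2 lost its call in both of these settings and JAK1 against a fold of 1.2. Transcripts of IFNB1 and IFNG were not analysed here.

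Among 11 genes listed for the enhanceosome, 3 were called lower and 3 higher, beside 18.6% lower and 17.6% higher of all tested genes. The counts were 0 lower and 1 higher for a fold of 1.2, and 1 each without both libraries of replicate number 1. NLRC5, the class I transactivator, had 46.1 ± 3.58 CPM in Set7KD and 48.0 ± 1.74 CPM in NTC (SD, n = 3), a log2 fold change of -0.06 with a lower 95% bound of -0.20 (edgeR adjusted p = 0.566). NFYA and NFYC, subunits of the CCAAT-binding factor, rose and fell, at 0.45 and -0.31. RFXAP, of the RFX complex, had 0.44. The list also held USF1 and USF2, which are not parts of the RFX, CREB and NF-Y complex. USF2, which binds E-box elements, had -0.37.

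**Figure D4:**
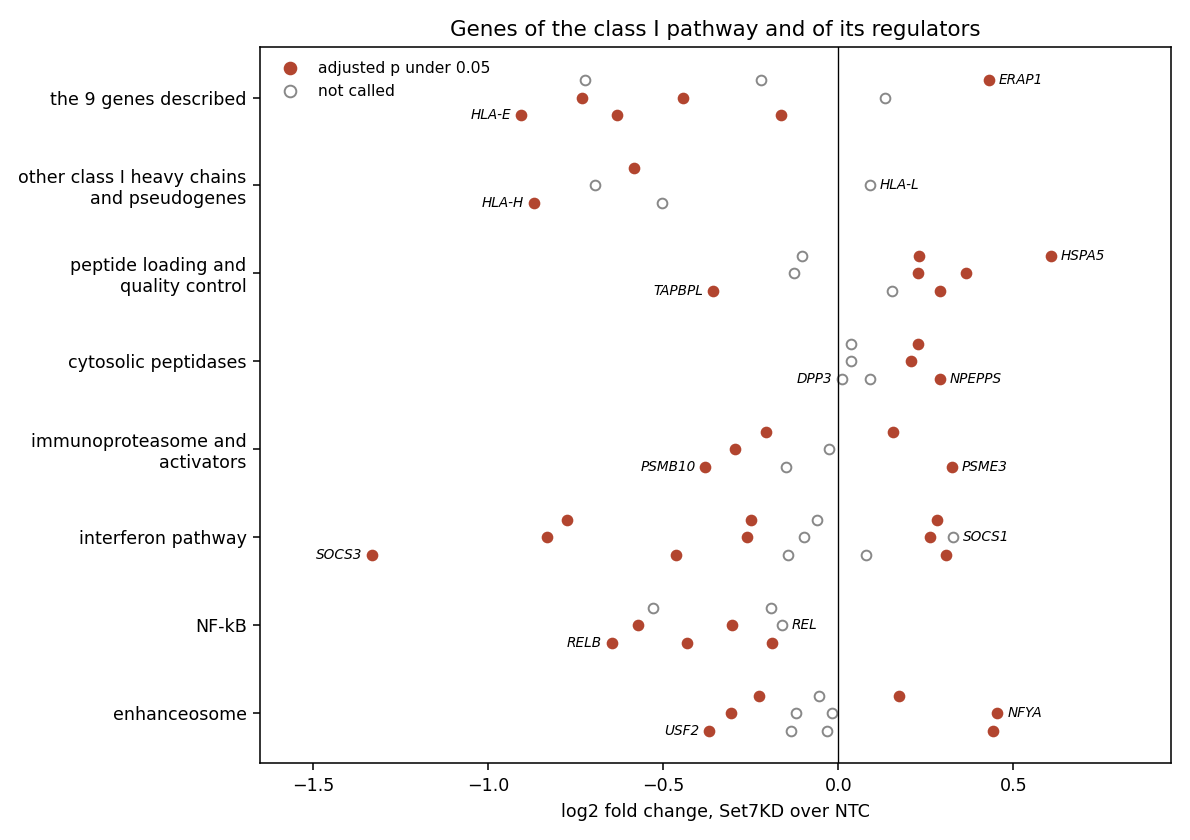
Log2 fold change, Set7KD over NTC, of each tested gene of the class I pathway and of its regulators, by list, with filled points for an edgeR adjusted p under 0.05 and the lowest and highest gene of each list named. NF-kB genes and most heavy chain genes lie left of 0, and most peptide loading genes lie right of 0.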

How the data were processed

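The authors deposited 1 table of whole-number read counts per gene for 6 libraries, without normalization. Group and replicate number came from the sample titles. RNA was isolated with a Qiagen kit and selected on Dynabeads for poly-A, per the labels' protocols. BWA, bedtools and hg19 are named in the submitters' processing notes, without versions or roles, and the strand setting, read length and treatment of multiply matching reads are not given in the sources used here. BWA does not splice reads. The last row of the deposited counts, for reads outside genes, held 55.6 to 56.1% of each library and was left out of library sizes and tests.

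All 6 libraries were fitted with edgeR 4.0.16 under R 4.3.3, using filterByExpr, TMM scaling, robust glmQLFit and glmQLFTest, with Benjamini-Hochberg adjustment over 18482 genes. The standard error is the absolute log2 fold change divided by the square root of F. Alternatives were other scalings and filters, a replicate block, DESeq2 1.42.0, limma-voom (limma 3.58.1), a minimum fold of 1.2 in the null hypothesis, a threshold of 0.01 on the adjusted p, and leaving out libraries. Ratios between genes were compared by exact permutation. Leaving out both libraries of a number was added, and the alternatives were extended to the other lists and genes, after the data were seen. Within a group, the chi-square statistic per degree of freedom between libraries was 2.98 to 9.85, above counting noise.

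The replicate numbers were checked for pairing. After subtracting each group's mean, libraries of the same number correlated at 0.302, 0.419 and 0.34 over 11151 genes averaging 10 CPM or more. Each is over 0.1, so the numbers were read as pairs. The labels do not say what a number stands for, so this reading rests on the correlation. The fit behind the printed calls has no block, and the permutations of ratios did not use the numbers. The fit with the block is an alternative, given where it changes a call of a named gene. It also changed counts of some other lists. With the block, 6 NF-kB, 3 other class I heavy chain, 3 class I-like and 3 class II genes were called lower. So were 5 endothelial and 1 epithelial markers, while 6 peptide loading genes and 1 leukocyte marker were called higher. Counts of the peptidase, immunoproteasome, enhanceosome, interferon and fibroblast lists did not change.

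The genes and lists were chosen with earlier results of these data known. Named genes are the 9 described, SETD7, up to 4 with the smallest p of each list, list genes that did not pass, and those most correlated with HLA-E or B2M. Some genes of the lists are not reported here. Lengths and overlaps came from GENCODE 29, by Ensembl identifier, on a later build than the counts. Promoters are from RefSeq (GRCh38.p14). Motifs and figures were made in Python 3.11.15. Counting error alone does not cover the spread between cultures.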

Additional observations from a re-analysis of the deposited data

How the results depend on the processing

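No direction changed in any setting for the 9 genes, the heavy chain sum and the 5 ratios. Among other named genes, 4 near 0 changed sign without being called. With 1 library left out CIITA lay at -0.023 to 0.074, HLA-F-AS1 at -0.064 to 0.039, NLRC5 at -0.10 to 0.011 and HLA-L at -0.060 to 0.23, and without both libraries of number 1 HLA-F-AS1 was at 0.026 and HLA-L at -0.14. HLA-E and ERAP1 kept their calls in 17 of 17 alternatives. HLA-B, not called, passed with upper-quartile scaling (-0.72), a filter of at least 50 counts in 3 libraries (-0.72), the replicate block (-0.71), DESeq2 (-0.72), limma-voom (-0.71) and without both libraries of replicate number 2 (-0.70) or 3 (-0.76), and lay at -0.86 to -0.57 with 1 library left out. TAP1 passed with the replicate block (-0.21) and without both libraries of number 3 (-0.31), and lay at -0.35 to -0.11 with 1 library left out. TAPBP lost its call with DESeq2 (-0.16), against a fold of 1.2 (-0.16) and without both libraries of number 1, 2 or 3 (-0.16, -0.14 and -0.18), and lay at -0.20 to -0.13 with 1 library left out. B2M lost its call against a fold of 1.2 (-0.44). Without both libraries of number 1 the calls of B2M (-0.41), HLA-C (-0.60), HLA-F (-0.71) and the heavy chain sum (-0.70) were lost, and 1 of the 9 genes was called lower. The count of lower genes among the 9 was 5, with 3 against a fold of 1.2, 7 with the replicate block and 4 to 7 with 1 library left out. The block changed no call of another named gene, but it changed the counts of some other lists. Over all genes, 903 were higher and 1314 lower against a fold of 1.2, 2103 and 2197 at an adjusted p under 0.01, and 1414 and 1562 without both libraries of number 1, against 3037 and 3113 without number 2 and 2827 and 2782 without number 3. A test against a fold and a stricter threshold call fewer genes by construction. The cause of the lower counts without number 1 was not tested. Scaling moved the median of all genes by under 0.1. With 3 libraries a group the permutation tests could not go below 0.1, and HLA-F, at 198 to 460 counts per library, is the gene with the fewest reads.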

Other observations

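Of 10 genes related to class I chains but outside the peptide loading pathway, 2 were called lower and 2 higher in Set7KD. These counts were near the shares of all tested genes, 18.6% lower and 17.6% higher. By edgeR 0 were higher both against a fold of 1.2 and without both libraries of replicate number 1. FCGRT, the neonatal Fc receptor, which also pairs with B2M, fell to 24.5 ± 1.01 CPM in Set7KD, against 39 ± 1.15 CPM in NTC (SD, n = 3, edgeR adjusted p = 4.45e-06). MR1, which presents vitamin metabolites and pairs with B2M as well, had 12.5 ± 1.43 CPM in Set7KD and 20.9 ± 1.84 CPM in NTC (edgeR adjusted p = 7.11e-05). The stress ligands MICB and ULBP3, recognised by natural killer cells without a bound peptide, rose with log2 fold changes of 0.34 and 0.43, and the call of ULBP3 was lost without Set7KD replicate 1 or 2 or NTC replicate 1 or 2. Of 13 class II genes 5 matched a row, all at low levels, with 2 lower and 0 higher by edgeR, and 1 lower without both libraries of replicate number 1. HLA-DMA, a peptide exchange factor, had 1.85 ± 0.34 CPM in Set7KD and 3.93 ± 0.66 CPM in NTC (edgeR adjusted p = 0.000662). HLA-DOA had a log2 fold change of -1.54 at under 2 CPM. CIITA, the class II transactivator, had 9.50 ± 0.69 CPM in Set7KD and 9.41 ± 0.43 CPM in NTC and did not pass.

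The levels of HLA-E and B2M over the 6 libraries were set beside those of all genes averaging 10 CPM or more, with HLA genes and the other genes of the group left aside. The 5 genes most like HLA-E were KLHL24, RBBP4, JOSD1, HIPK3 and STAP2, with a Pearson correlation of log2 CPM of 0.998 to 0.9995. Those most like B2M were PMAIP1, PELI1, FAS, OGFRL1 and WWTR1, at 0.997 to 0.998. All 10 had a negative log2 fold change, from -1.13 for KLHL24 to -0.39 for WWTR1. PELI1 and PMAIP1 lost their calls without Set7KD replicate 1 or NTC replicate 1, and PMAIP1 also without Set7KD replicate 3. With 6 libraries in 2 groups such values are a description only, and they include the difference between the groups. After subtracting each group's mean, the correlations of these genes were 0.958 to 0.990 with HLA-E and 0.988 to 0.992 with B2M. ERAP1 correlated with HLA-E at 0.967 after this step, against -0.87 before it.

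Antisense rows at the HLA-F locus differed from each other. HCG4P11, a pseudogene on the opposite strand that covers 16.1% of the exon bases of HLA-F, had 2.80 ± 0.48 CPM in Set7KD and 5.74 ± 1.17 CPM in NTC (SD, n = 3), while HLA-F-AS1, which covers 12.3% of them, had 3.39 ± 0.15 CPM in Set7KD and 3.44 ± 0.26 CPM in NTC. Without a stated strand setting, such reads and those of HLA-F cannot be told apart. Both rows were picked after their values were seen.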
